A study of Homo sapiens with 2 samples.

Results

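The 9 genes described here are ANGPTL4, 5 further target genes of the peroxisome proliferator-activated receptors (PPARs) that act in lipid metabolism (PDK4, CPT1A, PLIN2, ACADVL and FABP5) and the 3 receptors themselves (PPARA, PPARD and PPARG). They were found by gene symbol or older alias among the 30471 genes that the array names, and the set was chosen by the log2 ratio of ANGPTL4, which was about equally high with both SUB1 small interfering RNAs (siRNAs). Since the ratios of both arrays were used in this choice, the values of the members are given as a description with no test. The array held 18 probes for these 9 genes, of which 16 passed the filter on dim probes, and every gene kept at least 1 probe. ANGPTL4, PLIN2, ACADVL and PPARG had 1 probe each. The filter kept 19211 genes in all.

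RNA came from PC3 cells, an established line from a bone metastasis of prostate cancer, 72 h after the first of a pair of identical transfections. The array of the SUB1 siRNA1 group compared cells given siRNA 1 against SUB1, a transcriptional coactivator, with cells given a non-targeting (Non-T) siRNA, and the array of the SUB1 siRNA2 group did the same for siRNA 2. Each group was 1 array with no repeat, the Non-T RNA was always labelled with Cy3 and the SUB1 siRNA RNA with Cy5, and no dye swap was made, so that a probe's dye bias and its response to the siRNA are confounded and cannot be told apart. Transient siRNA in a single line is the model, and the study's comparison asks which genes change when SUB1 is reduced. The SUB1 probe that was brightest showed log2 ratios of -3.30 and -3.26, which left 10.2% and 10.4% of the Non-T level, and all 4 SUB1 probes were lower on both arrays. All 5 epithelial markers were well above background in the Non-T channel. Of 3 probes for KLK3, which encodes prostate-specific antigen, 1 was bright (raw Cy3 signals of 18634 and 15436), which stands against the low level of this gene for which PC3 is known. In RNA from whole wells, fewer cells of a kind and less RNA per cell cannot be told apart.

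PPARs are nuclear receptors that bind fatty acids and their derivatives, pair with a retinoid X receptor (RXR) and switch on genes that take up, store and burn fat. ANGPTL4 encodes a secreted protein that inhibits lipoprotein lipase, and it is among the most responsive PPAR targets in many cell types, but hypoxia, glucocorticoids and transforming growth factor beta (TGF-beta) also induce it. PPARs bind pairs of the half-site AGGTCA spaced by 1 base, the DR1 element, and in many targets, ANGPTL4 and PLIN2 among them, the known functional sites lie within the gene or further upstream than the window shown here.

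The 250 bases ahead of the annotated start are shown for ANGPTL4, PLIN2 and PDK4, the target genes with the highest ratios with both siRNAs. PLIN2 and PDK4 stayed under 2-fold, and the windows are shown for their place at the top of the set. They are RefSeq sequence of assembly GRCh38.p14, 5′ to 3′ on the strand of the gene, at chr19:8363905-8364154 (+), chr9:19127493-19127742 (-) and chr7:95596517-95596766 (-). Capitals mark matches, on either strand, to ACGTG, a form of the core of the element bound by hypoxia-inducible factors. Other forms of this core were not searched, and no match to any other element searched fell in these windows.
ANGPTL4: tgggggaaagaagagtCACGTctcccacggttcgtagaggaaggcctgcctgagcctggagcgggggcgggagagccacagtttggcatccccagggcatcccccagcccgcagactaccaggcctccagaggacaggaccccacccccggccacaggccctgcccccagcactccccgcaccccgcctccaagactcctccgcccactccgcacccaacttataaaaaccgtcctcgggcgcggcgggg
PLIN2: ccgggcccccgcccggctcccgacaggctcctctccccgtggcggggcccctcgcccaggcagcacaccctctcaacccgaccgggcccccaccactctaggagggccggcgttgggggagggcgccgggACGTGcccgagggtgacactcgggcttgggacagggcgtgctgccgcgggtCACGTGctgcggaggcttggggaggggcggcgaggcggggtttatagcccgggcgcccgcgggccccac
PDK4: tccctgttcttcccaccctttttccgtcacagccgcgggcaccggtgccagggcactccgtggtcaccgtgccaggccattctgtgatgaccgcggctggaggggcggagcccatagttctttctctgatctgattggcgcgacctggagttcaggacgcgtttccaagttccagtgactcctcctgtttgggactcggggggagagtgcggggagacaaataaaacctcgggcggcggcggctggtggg

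The windows searched were longer than those shown and also took in bases past the annotated start. That of PLIN2, on the minus strand, reached chr9:19127443, where the one shown stops at 19127493. Such longer windows were available for 35093 annotated starts, and 8 of the 9 genes had at least 1, all but FABP5. The shares below are of these longer windows. The DR1 element, AGGTCA repeated in the same direction after 1 free base and searched on both strands like all others, was in 0.0228% of all windows and in no window of a member. With AGGNCA in place of AGGTCA in both repeats it was in 0.311% of all windows and again in none of a member. A single AGGTCA was in 13.8% of all windows and, among the members, only in 3 of the 6 windows of PPARG. The hypoxia core in the form ACGTG was in 21.4% of all windows. Among the members it was in the single window of ANGPTL4 and of PLIN2, in 1 of 2 windows of ACADVL and in 1 of 6 of PPARG. In ANGPTL4 it lay at positions -234 to -230 from the start on the minus strand, and in PLIN2 at -120 to -116 and, as an overlapping pair on both strands, between -69 and -64. A relaxed glucocorticoid element, GNACA and TGTNC with 3 free bases between them, was in 0.39% of all windows and in none of a member. A match in letters is a description and not a site of binding.

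ANGPTL4 was the only member that passed a fold change of 2, the threshold the study's methods use, and it did so with both siRNAs. Its raw signals, before background correction and normalization, were 1762 in the Non-T channel and 5291 in the SUB1 siRNA channel of the siRNA 1 array. The siRNA 2 array gave 1591 and 4830. Both SUB1 siRNA signals lay above both Non-T signals. After loess normalization, which removes the difference between the dyes that depends on brightness, the log2 ratio was 1.28 with siRNA 1 and 1.28 with siRNA 2, a 2.43-fold higher level in each case. These ratios stood at the 99.9th and 99.8th percentile of all genes on their arrays. The background is small, since 0.208% of all genes were at least 2-fold higher with siRNA 1, 0.614% with siRNA 2 and 0.0521%, or 10 genes, with both. ANGPTL4 was chosen for being one of these, so nothing is read from that share. Its single probe maps to chr19:8345169-8345228 in build hg18, and whether these bases lie in an exon or in which part of the transcript was not analysed here. The ratio stayed above 2-fold in all 11 processing settings, at 1.27 to 1.54 for siRNA 1 and 1.28 to 1.56 for siRNA 2 on the log2 scale. Several of these settings could not alter it. They act on dim probes, flagged spots, further probes of a gene or brightness between arrays, and ANGPTL4 had 1 bright probe without flags.

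**Figure D1:**
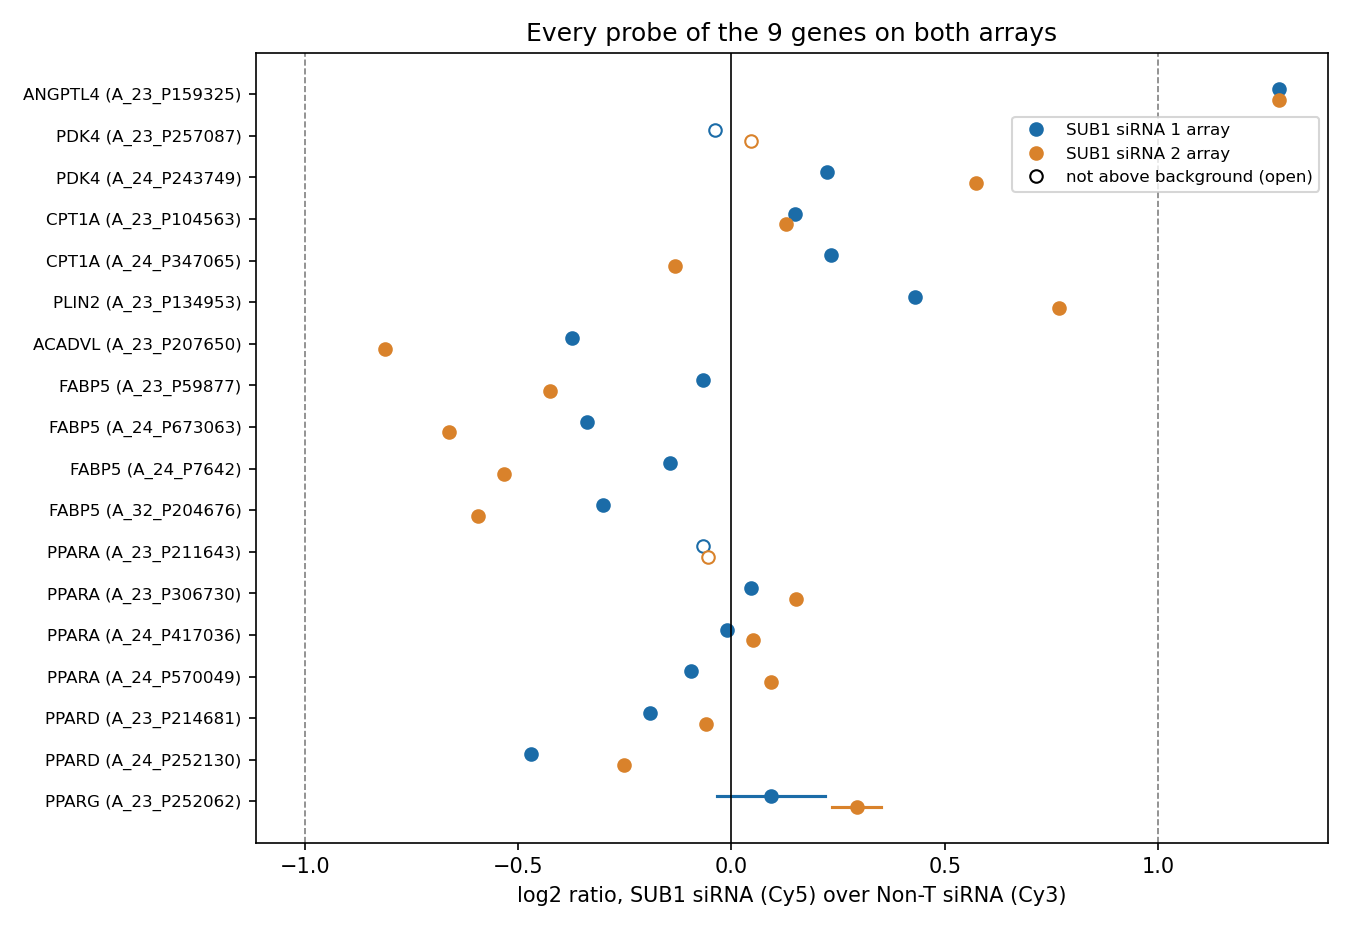
Log2 Cy5 over Cy3, that is SUB1 siRNA against Non-T siRNA (x axis), for each of the 18 probes of the 9 genes (y axis, gene and probe), with siRNA 1 in blue and siRNA 2 in orange. Open circles are the 2 probes with neither channel above background, lines at PPARG are the SD over its 10 spots, dashed lines mark 2-fold, and ANGPTL4 alone lies beyond them, at 1.28 on both arrays.

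PLIN2 and PDK4 followed ANGPTL4 in direction with both siRNAs and stayed under 2-fold. PLIN2, listed by the array under its older name ADFP, encodes perilipin 2, a coat protein of lipid droplets. Its raw signals were 337 for Non-T and 507 for siRNA 1, and 285 for Non-T and 538 for siRNA 2. The log2 ratios were 0.43 and 0.77, or 1.35-fold and 1.70-fold, at the 94.3rd and 98.5th percentile of all genes. The probe lies at chr9:19106370-19106429 (hg18). PDK4 encodes pyruvate dehydrogenase kinase 4, which turns off the pyruvate dehydrogenase complex and so favours fat over glucose as fuel. Its brighter probe, at chr7:95051243-95051302 (hg18), was dim, with raw signals of 155.5 for Non-T and 173 for siRNA 1, and of 137 for Non-T and 202 for siRNA 2. The log2 ratios were 0.22 with siRNA 1 and 0.57 with siRNA 2, or 1.17-fold and 1.49-fold. The other PDK4 probe was not well above background in either channel on either array and gives no ratio. For PLIN2 and PDK4 alike the value with siRNA 2 was the higher.

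CPT1A, which encodes the liver form of carnitine palmitoyltransferase 1 and controls entry of long-chain fatty acids into mitochondria, was near its Non-T level. The brighter probe, at chr11:68283639-68283698 (hg18), had raw signals of 163 for Non-T and 173 for siRNA 1, and of 139 for Non-T and 148 for siRNA 2. Its log2 ratios were 0.15 and 0.13. The dimmer probe had ratios of at least 1.18 with siRNA 1, where the Non-T channel was not well above background, and of 0.912 with siRNA 2, and the mean of both probes with siRNA 2 was -0.0019 on the log2 scale. No direction is given for CPT1A.

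ACADVL and FABP5 had negative log2 ratios with both siRNAs, under 2-fold. ACADVL encodes the very long-chain acyl-CoA dehydrogenase, which takes the opening step of mitochondrial beta-oxidation. Its raw signals were 4738 for Non-T and 4618 for siRNA 1, and 4377 for Non-T and 3162 for siRNA 2. The log2 ratios were -0.37 and -0.81, or 0.772 and 0.570 of the Non-T level, at the 7.84th and 1.87th percentile of all genes. With median centring in place of loess they were -0.093 and -0.52. The probe lies at chr17:7069163-7069222 (hg18). FABP5 encodes an intracellular fatty acid binding protein that can deliver ligands to PPARD. Its brightest probe had raw signals of 6763 for Non-T and 8352 for siRNA 1, and of 5758 for Non-T and 5552 for siRNA 2. Its log2 ratios after loess were -0.068 and -0.42. All 4 FABP5 probes were lower on both arrays, at 0.791 to 0.954 of the Non-T level for siRNA 1 and 0.632 to 0.745 for siRNA 2. One of these probes is also assigned by the array to the pseudogene FABP5P3, so the copies may share signal. The siRNA 1 value of FABP5 turned on the normalization, since it was 0.25 with median centring in place of loess and 0.018 in the log2 ratios that the authors deposited, while the siRNA 2 value was below 0 in all 11 settings.

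Among the receptors, none passed 2-fold. PPARG, the receptor best known from fat cells, had raw signals of 3804 for Non-T and 5087 for siRNA 1, and of 3329 for Non-T and 5174 for siRNA 2. Its log2 ratios were 0.092 and 0.29, and 0.37 and 0.59 with median centring in place of loess. Its probe, at chr3:12433499-12433558 (hg18), was printed 10 times on each array and shows the error within an array. The SD over these spots was 0.126 with siRNA 1, with spots from -0.057 to 0.36, and 0.057 with siRNA 2, with spots from 0.22 to 0.36. The spots of the siRNA 1 array thus lay on both sides of 0, and those of the siRNA 2 array all above it. PPARD, the receptor expressed in most tissues, had raw signals of 1229 for Non-T and 1065 for siRNA 1, and of 1081 for Non-T and 1100 for siRNA 2. Its log2 ratios were -0.47 and -0.25, or 0.722 and 0.840 of the Non-T level, at the 5.06th and 16.7th percentile, from a probe at chr6:35503787-35503846 (hg18). With median centring in place of loess they were -0.25 and -0.019. A second, dim PPARD probe had ratios of 0.877 and 0.960. PPARA, which governs fat oxidation in liver, was at the edge of detection. The brightest of its 4 probes, at chr22:45017842-45017901 (hg18), had raw signals of 123 for Non-T and 108 for siRNA 1, and of 99.8 for Non-T and 100.5 for siRNA 2, with this last Non-T signal not well above background. The log2 ratio was -0.094 with siRNA 1 and, under the main processing and without spot error, at least 0.093 with siRNA 2. With median centring the siRNA 2 value was 0.075. With Feature Extraction's processed signals the ratios reached 0.31 and 0.90, so no direction is given. Of the other kept PPARA probes, 1 stood at 0.045 and 0.15 and 1 at -0.010 and 0.049 on the log2 scale. Neither had a Non-T signal well above background on either array. One PPARA probe was not well above background in any channel.

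The spot error bears on these small ratios. Over 209 probes printed 10 times, the median spot-to-spot SD of the log2 ratio came to 0.078 for siRNA 1 and 0.074 for siRNA 2. For the dim ones, with a mean log2 intensity under 8 as for PDK4, CPT1A and PPARA, it was 0.098 and 0.092. This is error within an array and leaves out the spread between cultures, which 1 array per siRNA does not give.

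By the sign of the reported ratio, 5 of the 9 members were positive with both siRNAs and 3 negative with both, while 1, PPARA, was at the edge of detection with opposite signs. Of all genes 38% were positive with both, 30.4% negative with both and 31.6% opposite in sign. The members' counts include the ANGPTL4 ratios that chose the set, and the signs of CPT1A with siRNA 2 and of FABP5 and PPARA with siRNA 1 turned under other processing, so nothing is read from them.

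**Figure D2:**
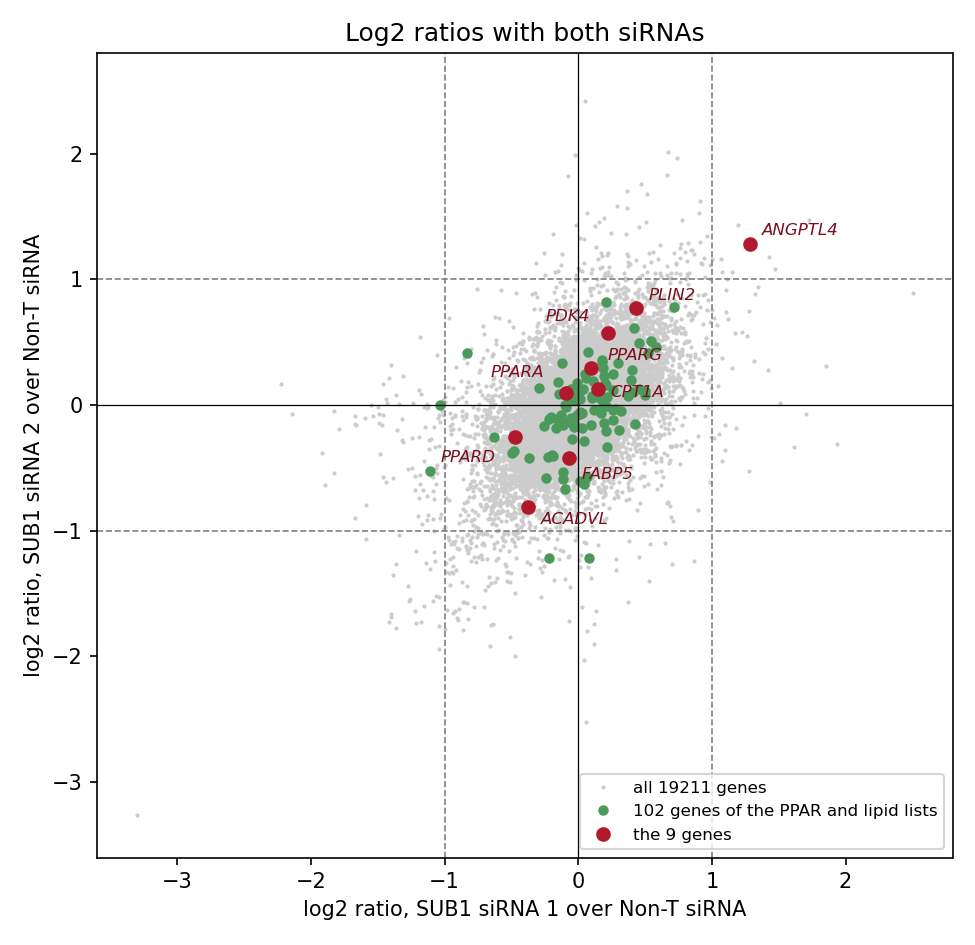
Log2 ratio with SUB1 siRNA 2 (y axis) against that with SUB1 siRNA 1 (x axis) for all 19211 genes (grey), 102 genes of 8 PPAR and lipid lists (green) and the 9 members (red, named), with dashed lines at 2-fold. ANGPTL4 lies at 1.28 on both axes, ACADVL lowest of the members on the y axis at -0.81, and no green gene beyond 2-fold on both axes.

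The siRNAs differed from each other in most members, and the 4 channels show where. The channel signals given here were normalized between the arrays after loess, which aligns the brightness of the arrays. For ANGPTL4 the log2 ratio of siRNA 2 less that of siRNA 1 was -0.00034. Its normalized Cy3 and Cy5 signals were each 0.10 higher on the siRNA 2 array, where both raw signals were lower. For PLIN2 the difference in ratio was 0.34, made up of -0.042 in the Non-T signal and 0.30 in the SUB1 siRNA signal. PDK4 showed the same form, with a difference in ratio of 0.35 from 0.045 in Cy3 and 0.39 in Cy5. ACADVL differed by -0.44, with 0.13 in Cy3 and -0.31 in Cy5. FABP5 differed by -0.36, with -0.0032 in Cy3 and -0.36 in Cy5, and its 4 probes by -0.39 to -0.29. PPARD and PPARG differed by 0.22 and 0.20, mostly in Cy5 as well (0.25 and 0.24). In these 6 genes the Non-T signals of the arrays were thus closer to each other than the SUB1 siRNA signals were. The same held for all genes, in which the SD of the difference between arrays was 0.117 in Cy3 and 0.313 in Cy5. The difference in ratio had a range of -0.65 to 0.63 over the middle 95% of all genes, and every member lay within it.

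**Figure D3:**
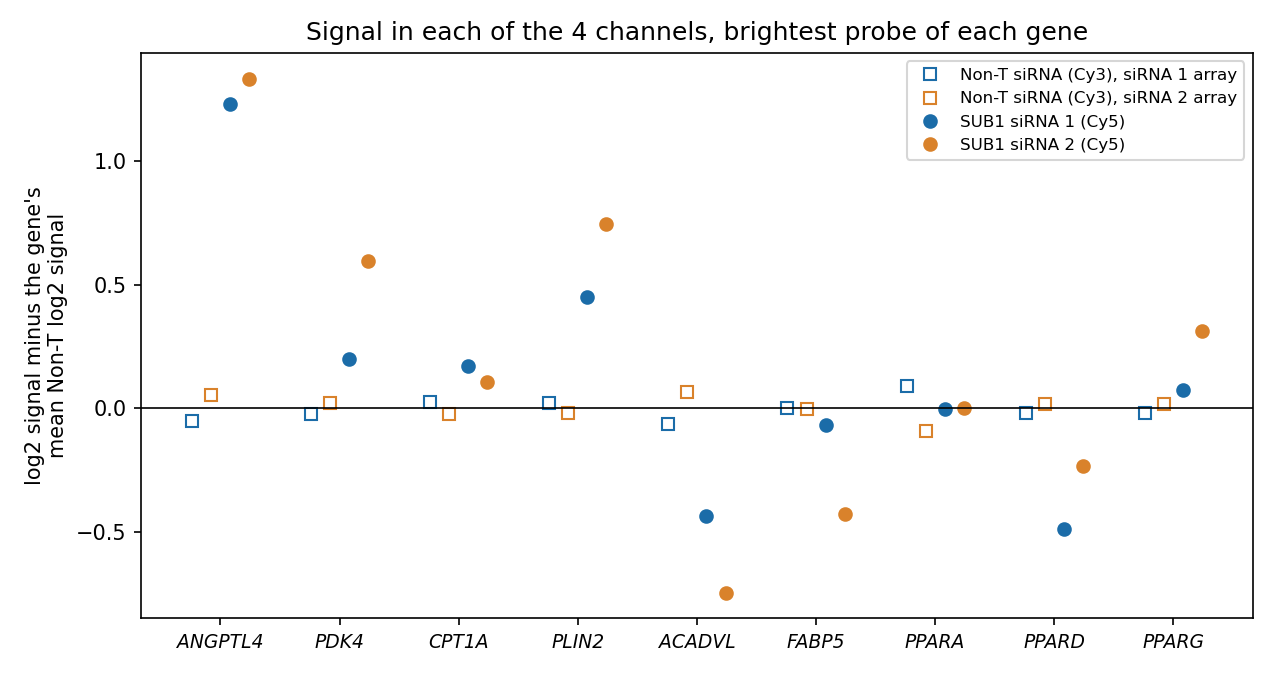
Log2 signal, normalized within and between arrays, of the brightest probe of each member in the 4 channels, less the mean of its own Non-T signals (y axis), so that the open squares (Non-T, Cy3) lie around 0. Filled circles are SUB1 siRNA 1 (blue) and SUB1 siRNA 2 (orange), which lie 0.10 apart for ANGPTL4, 0.30 apart for PLIN2 and -0.36 apart for FABP5.

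Other genes of the pathway were taken from 8 lists, which together named 138 genes beside the members, and 102 of these were measured. Their median log2 ratio was 0.038 with siRNA 1 and -0.0044 with siRNA 2, close to the median of all genes. None was at least 2-fold higher with either siRNA, and 2 were at least 2-fold lower with each, or 1.96%. Of all genes 0.609% were lower with siRNA 1 and 1.07% with siRNA 2, and 0.817% and 1.68% were changed in either direction. With siRNA 1 the count of list genes changed in either direction was 0 with median centring and with the mean of all kept probes. It was 1 without background correction, so the siRNA 1 calls rest on the processing. With processed signals the count was 4 for siRNA 1 and 8 for siRNA 2. No gene of these lists passed an adjusted p of 0.05 in limma over both arrays (Benjamini-Hochberg over all genes, lowest adjusted p 0.112). At an unadjusted p under 0.05, 11 of the 102 were higher and 10 lower, where 11% of all genes were higher and 9.91% lower. In that fit 1 of all genes, or 0.00521%, passed the adjusted threshold and 20.9% had an unadjusted p under 0.05. This fit takes the siRNAs as 2 knockdowns of SUB1 and carries no spread of the Non-T cells.

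Of the partners of the PPARs, 14 of 18 were measured, with medians of 0.12 and 0.054, and none was changed 2-fold. RXR gamma and the coactivators PPARGC1A, PPARGC1B and NCOA2 did not pass the filter on dim probes. The largest mean ratios were those of CITED2, a coactivator of PPARs (0.21 with siRNA 1 and 0.82 with siRNA 2), and NCOA1, a coactivator of nuclear receptors (0.52 and 0.41), with adjusted p of 0.211 and 0.135. No partner was past the threshold in either direction.

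Mitochondrial fatty acid oxidation had 21 of 22 genes measured beside CPT1A and ACADVL, with medians of -0.049 and -0.13. HADH, the short-chain hydroxyacyl-CoA dehydrogenase of the third step, was 2-fold lower with siRNA 1 (-1.11) and at -0.53 with siRNA 2 (adjusted p 0.134), and its second, dimmer probe stood at -0.12 and -0.20. SLC22A5, the carnitine importer of the plasma membrane, had the highest mean ratio of all 8 lists, with 0.71 and 0.78 (adjusted p 0.112). In peroxisomal and omega oxidation, with 17 of 19 measured and medians of 0.11 and -0.025, ACOX2, an oxidase of branched-chain fatty acids and bile acid intermediates, was 2-fold lower with siRNA 2 (-1.22) and at -0.22 with siRNA 1. AMACR, the racemase of branched-chain fatty acids that marks prostate cancer, was at -0.22 and -0.42. Neither passed the test, with adjusted p of 0.221 for ACOX2 and 0.204 for AMACR.

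Among 14 of 19 genes of the lipid droplet measured beside PLIN2, the medians were -0.085 and -0.11. G0S2, an inhibitor of the triglyceride lipase ATGL, was at 0.084 with siRNA 1 and 2-fold lower, at -1.22, with siRNA 2. MGLL, which cleaves monoglycerides, was at -0.63 and -0.25. PLIN1 and PLIN5, the other perilipins of fat-storing and oxidative cells, did not pass the filter on dim probes. Of fatty acid uptake and lipoprotein lipases 12 of 23 were measured, with medians of 0.14 and 0.021 and none changed 2-fold. CD36, a fatty acid receptor, and LPL, the lipase that the ANGPTL4 protein inhibits, did not pass the filter on dim probes. The fatty acid transport proteins SLC27A4 (-0.37 and -0.42) and SLC27A5 (-0.11 and -0.59) had the largest mean ratios here.

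Of 10 other angiopoietins and angiopoietin-like proteins, 3 were measured, and none came near ANGPTL4. ANGPTL2, a pro-inflammatory relative, was at 0.50 and 0.11, with a dimmer probe at 0.14 and 0.13, and ANGPTL8, a regulator of lipoprotein lipase activity, at -0.21 and -0.092. All 13 genes listed with PDK4 around the pyruvate dehydrogenase complex were measured, with medians of 0.016 and -0.0032. PDK1, a kinase of the same family as PDK4, was at 0.55 and 0.51 from its brighter probe and at 0.026 and 0.13 from the other. MPC1, a subunit of the mitochondrial pyruvate carrier, was at 0.58 and 0.46 (adjusted p 0.126). DLAT, the acetyltransferase subunit, was 2-fold lower with siRNA 1 by its brightest probe (-1.04, with -0.0032 for siRNA 2), whereas its other probes gave -0.30 and -0.39 with that siRNA. Of 14 other textbook targets 8 were measured, with medians of 0.023 and 0.15. MLYCD, the malonyl-CoA decarboxylase, was at 0.42 and 0.61, with a dimmer probe at -0.082 and -0.24, and ACOT2, a mitochondrial acyl-CoA thioesterase, was at 0.45 and 0.49, with other probes at 0.65 and 0.67 and, the dimmest, at -0.0091 and 0.12.

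**Figure D4:**
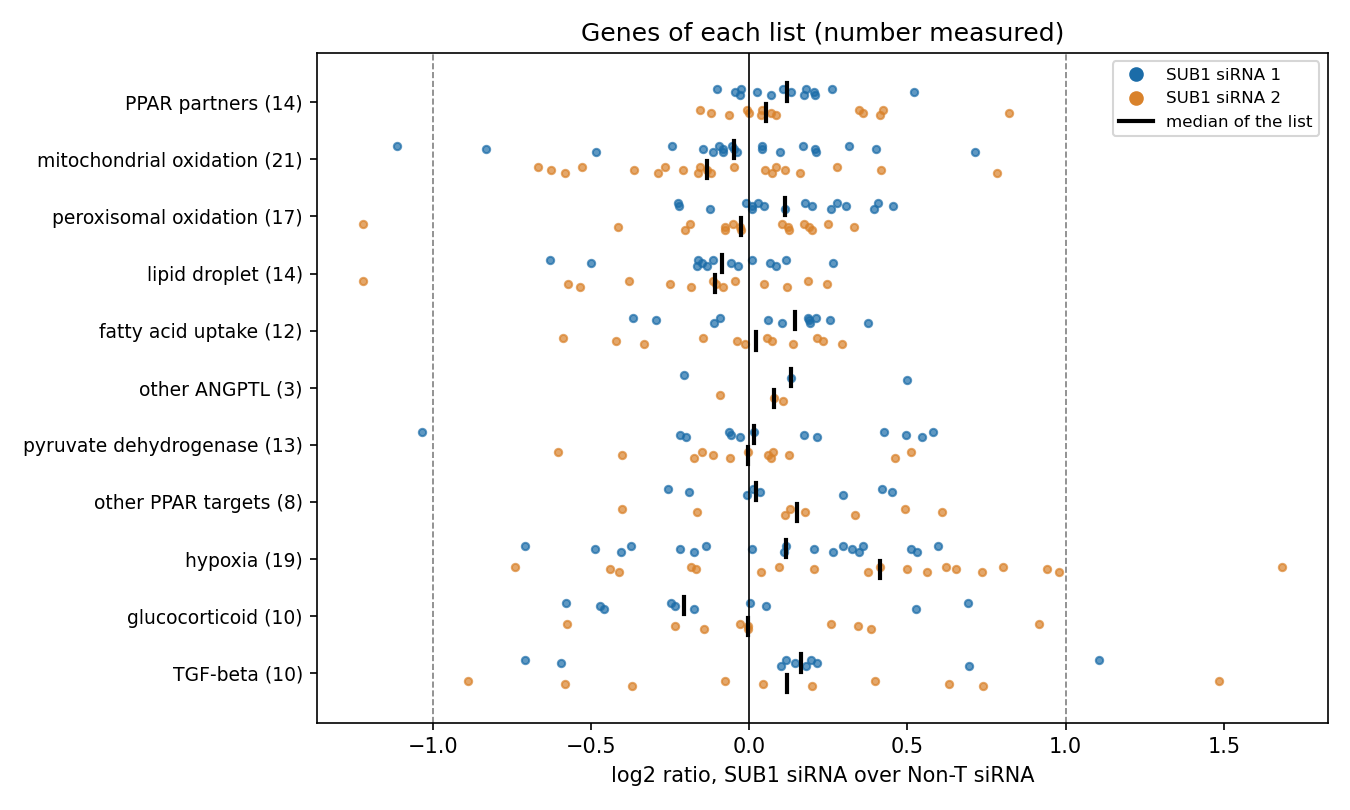
Log2 Cy5 over Cy3 (x axis) for each measured gene of 8 PPAR and lipid lists and of 3 lists for other inducers of ANGPTL4 (y axis, number measured), siRNA 1 in blue and siRNA 2 in orange, with the list median as a black bar and 2-fold as dashed lines. The medians of the 8 lists lie between -0.13 and 0.15, and that of the hypoxia list with siRNA 2 at 0.41.

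The other known inducers of ANGPTL4 were looked at in the same way. Of 20 hypoxia-induced genes 19 were measured, and the list median was 0.12 for siRNA 1 and 0.41 for siRNA 2. Both medians depended on the processing, at 0.34 and 0.80 with median centring, 0.29 and 0.63 with processed signals and 0.22 and 0.60 in the deposited ratios, and the siRNA 2 median was 0.30 with the mean of all kept probes. DDIT4, an inhibitor of mTORC1, was at 0.51 and, 2-fold higher, at 1.68, and KDM3A, a histone demethylase, at 0.53 and 0.94 (adjusted p 0.161 and 0.122). At an unadjusted p under 0.05, 8 of the 19 were higher and 3 lower, where 11% of all genes were higher and 9.91% lower by that threshold. The 3 lower ones were CA9 (-0.71 and -0.18), ERO1A (-0.49 and -0.44) and P4HA2 (-0.40 and -0.41). By sign, 11 of the 19 were positive with both siRNAs and 4 negative with both, where 38% and 30.4% of all genes were. Of glucocorticoid-induced genes 10 of 11 were measured, with medians of -0.21 and -0.0038 and none changed 2-fold. NFKBIA, the inhibitor of NF-kappa-B, was at 0.69 and 0.38 and ERRFI1, a feedback inhibitor of the EGF receptor, at -0.46 and -0.57, with a dimmer probe at -0.20 and -0.22. All 10 TGF-beta-induced genes were measured, with medians of 0.16 and 0.12. PMEPA1, a feedback inhibitor of TGF-beta signalling, was 2-fold higher with siRNA 1 (1.11, with 0.74 for siRNA 2), and its dimmer probe stood at 1.41 and 0.20. JUNB, a subunit of AP-1, was 2-fold higher with siRNA 2 by its brighter probe (1.48, with 0.19 for siRNA 1), whereas its dimmer probe stood at 0.37 with siRNA 2 and -0.16 with siRNA 1. No gene of these 3 lists passed the adjusted threshold in limma, and the part of any of these pathways in the ANGPTL4 ratio was not tested.

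The genes whose pair of ratios lay nearest to that of ANGPTL4, by Euclidean distance over the 2 arrays, were THC2667891, a transcript with no gene symbol here (1.19 and 1.43, distance 0.171), ANKRD46, an ankyrin repeat protein (1.42 and 1.18, 0.177), the unnamed probes A_23_P170719 (1.07 and 1.16, 0.244) and A_24_P127051 (1.15 and 1.05, 0.264), and HOXA13, a homeobox factor of the posterior body (1.47 and 1.08, 0.274).

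Adipocyte markers were checked because several members are abundant in fat cells. In the Non-T channel, LEP, PLIN1 and FABP4 were not well above background on either array. CIDEC (raw signals of 183 and 153) and 1 of 2 probes for ADIPOQ (368 and 327) were detected, so 2 of 5 markers were, between 77.6 and 368 in raw Cy3 signal over the list. By the same call, 3 of 5 fibroblast markers and 2 of 4 leukocyte markers were detected as well. The median raw Cy3 signal of all gene spots was 128 and 114.

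**Figure D5:**
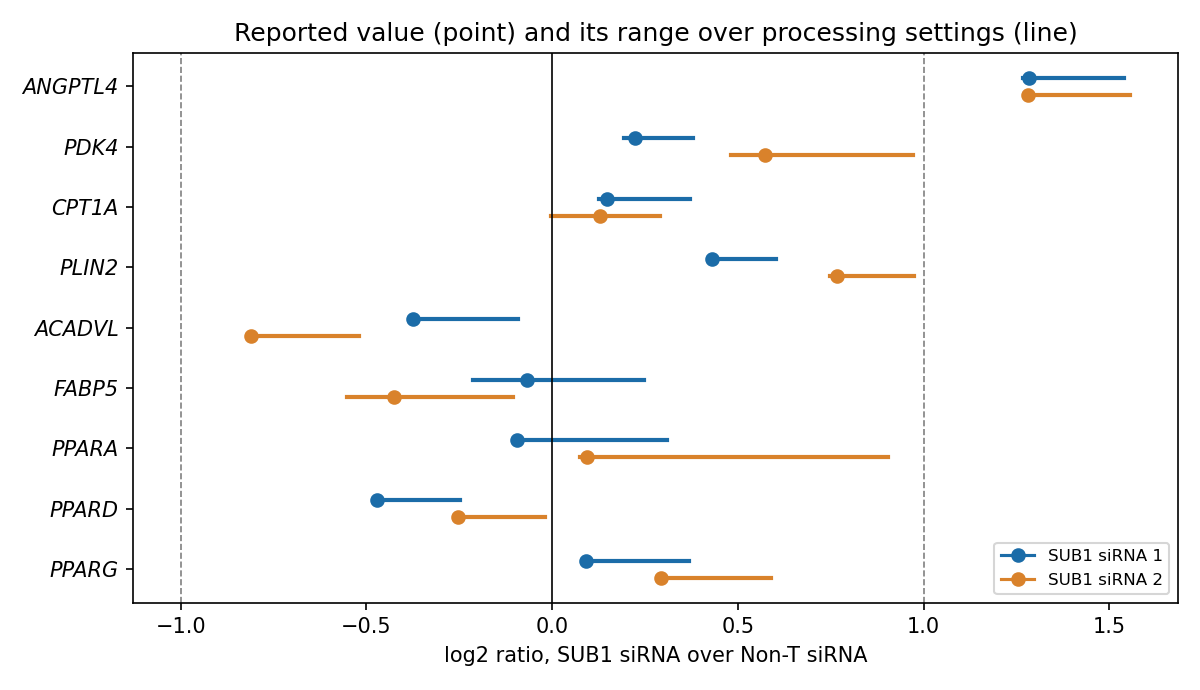
Log2 ratio of each member with SUB1 siRNA 1 (blue) and SUB1 siRNA 2 (orange) as reported (point) and its lowest and highest value over 11 processing settings, 10 for PPARA (line), with 2-fold as dashed lines. ANGPTL4 stays right of 1 in all of them, though several cannot alter its value. No other member passes 1 or -1, and the lines of FABP5 and PPARA with siRNA 1 and of CPT1A with siRNA 2 cross 0.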

How the data were processed

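Each sample was a 2-colour Agilent whole-genome array, with Non-T siRNA RNA in Cy3 and SUB1 siRNA RNA in Cy5, and the group of each came from its labels. The authors deposited scanner output whose spot intensity values came from Feature Extraction 9.5.1.1 and whose probe positions are in hg18 per the file headers. The same files as deposited hold log10 ratios that Feature Extraction made from its processed signals, which were not used. The authors also deposited a table of log2 ratios, used as an alternative. Set against the loess ratios described next, it correlated at 0.960 and 0.970 with slopes of 0.962 and 0.980, so its scale is log2 and its direction Cy5 over Cy3, and its medians were -0.0054 and -0.0068. Depth does not apply to arrays, and their number limits the precision.

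From the intensities, the mean spot signal was corrected for the median local background (normexp, offset 50) and normalized within each array by loess (span 0.3) with limma 3.58.1 in R 4.3.3. Outlier spots were left out (112 and 100 of 43376 gene spots), and spots of a probe were averaged. For the signals of single channels, limma's Aquantile normalization was run after loess, which aligns brightness between the arrays. No spot was saturated. Between 54.3% and 67.2% of gene spots were well above background per channel. Of 41000 probes the 25673 that reached the software's call for signal over background in a share of 0.5 or more of their spots, in Cy3 or Cy5, on each array stayed in. A gene is its brightest kept probe, and 4900 genes had more than 1. Symbols were updated through the accessions of the RefSeq table, which matched 13135 of the 19211 genes, and 6076 keep the name in the files. Promoter windows came from RefSeq (GRCh38.p14).

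A gene was called at a fold change of 2 on an array. Genes of the lists that are no members were also tested by limma over both arrays (an intercept, eBayes, Benjamini-Hochberg over all genes). Nothing says whether both arrays carried Non-T RNA of 1 culture, and p-values measure only the spread between these arrays, which may be technical. On simulated data of 19211 genes for this fit, with variances drawn from the fitted prior, 63.5% of 200 genes changed by 1 on the log2 scale were recovered and 98% of 200 changed by 2. With SDs drawn from the observed differences between the arrays, which was simulated before the other form, 0% were recovered at either size, so that a gene that misses the adjusted threshold is not shown to be unchanged. Members and lists were chosen with earlier results of these data known. Named genes are all members, SUB1, list genes past 2-fold, the 2 largest mean ratios in each list and the 5 genes nearest to ANGPTL4. CD36, LPL, PLIN1, PLIN5 and the undetected RXR and coactivator genes were added to these for their roles after the values were seen. CA9, ERO1A and P4HA2 were also added then, as the hypoxia genes that went down. Alternatives were other background corrections, normalizations, filters, probe rules and fits, the deposited log2 ratios and each array alone.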

Additional observations from a re-analysis of the deposited data

Results flagged for a closer look

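By its brightest probe, PPARA stood at -0.094 with siRNA 1 and at 0.093 with siRNA 2, opposite in sign. The Non-T channel of this probe was not well above background on the siRNA 2 array, so 0.093 is a lower bound under the main processing only, without spot error. The siRNA 2 value was 0.075 with median centring and 0.90 with processed signals. PPARA held the middle place, and the median of the 3 receptors had the same values and the same limit. The median of the list of peroxisomal and omega oxidation was 0.11 with siRNA 1 and -0.025 with siRNA 2. The median of the list around the pyruvate dehydrogenase complex was 0.016 with siRNA 1 and -0.0032 with siRNA 2. With 1 array per siRNA none of these differences was tested, and 31.6% of all genes had opposite signs on the arrays.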

How the results depend on the processing

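No paired analysis was possible because each siRNA was on 1 array, and the slide could not be fitted as a block because both arrays were on 1 slide. Over 178 alternative values of the members, no 2-fold call changed, though several settings cannot alter a gene with 1 bright probe. All members but ANGPTL4 lay under 2-fold, so an unchanged call says little for them. Of the 178 values, 41 moved from the reported one by more than the median spot-to-spot SD of their array. The ANGPTL4 values were judged by the 2-fold call only. The mean ratio of ANGPTL4 was 1.28, and leaving out each array in turn gave 1.28 to 1.28. Nothing is read from this, since the set was chosen for equal ANGPTL4 ratios on both arrays. No PPARA probe passed the filter that asks for both channels.

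Among the 102 list genes, 2 were changed 2-fold with siRNA 1, against 1 without background correction, 1 with median spot signals, 4 with Feature Extraction's processed signals, 0 with median centring and 0 with the mean of all kept probes. With siRNA 2 there were 2, against 8 with processed signals. Their median with siRNA 1 was 0.17 with processed signals and 0.22 with median centring, and with siRNA 2 0.14 and 0.12. These settings moved the median of all genes in the same direction, from 0.024 to 0.14 and 0.13 with siRNA 1 and to 0.17 and 0.12 with siRNA 2. With median centring and siRNA 1 the list median moved further than that of all genes.

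Genes at least 2-fold higher with siRNA 1 went from 40 to 983 with processed signals and to 137 with median centring, and lower ones from 117 to 214 and 56. With siRNA 2 higher ones went from 118 to 1242 and 266 and lower ones from 205 to 347 and 101. Higher genes made up 25.5% and 36.5% of those changed 2-fold with loess, 82.1% and 78.2% with processed signals, 71% and 72.5% with median centring and 36.7% and 47.4% in the deposited ratios. The cause was not tested. List genes past the adjusted p of limma numbered 0 in all settings. At an unadjusted p under 0.05 in limma, the main fit had 39 of 141 list genes (27.7%), beside 20.9% of all genes. The lowest and highest counts were 33 with processed signals and 50 with median centring, each of 141. Of all 19211 genes, 4507 and 5701 passed in these 2 settings. With median centring every pathway list median below 0 turned positive, except that of the glucocorticoid list with siRNA 1 (-0.050). PPARA with siRNA 1 was above 0 with median spot signals (0.030) and processed signals (0.31).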
